A study of Ptychodera flava with 8 samples.

Results

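The accessible chromatin of the early blastula was set against that of the late gastrula in Ptychodera flava, an acorn worm of the hemichordates, which are invertebrate relatives of echinoderms and chordates. The early blastula list held 46275 peaks and the late gastrula list 64713, which together are 110988 of the 202721 peaks of the 4 stages studied. Each end point comprised 2 ATAC-seq libraries of whole animals at that stage, each made from 75000 cells freed of the jelly coat and lysed for Tn5 transposition; the labels name no strain, genotype or separate culture. All peaks of both lists entered the comparison, and 2 peaks were called matched when they overlapped by 1 bp or more. Peaks without such a partner are called blastula-only and late-only below. The authors combined the libraries of a stage into 1 list, so the lists hold no value per replicate, no test between stages could be made from them, and every difference is given as a description. Read depth is unknown.

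In ATAC-seq the Tn5 transposase inserts adapters where nucleosomes leave the DNA open, and promoters and enhancers in use are among the stretches that appear as peaks. The early blastula is a hollow ball of cells near the onset of zygotic transcription in many animals, when regulatory DNA becomes accessible on a wide scale. By the end of gastrulation the germ layers have been laid down and cells of different fates use different sets of enhancers. In a whole-embryo list, a site that is open in fewer cells cannot be told apart from a site that is less open in each cell, and a site below the calling threshold of a list can still be accessible. The lists hold no expression values against which the stage names could be checked.

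Most early blastula peaks had a counterpart at late gastrula, while nearly as many late gastrula peaks lacked an early blastula counterpart as had one. Of the early blastula peaks, 32435 were matched (70.1%, Wilson 95% interval 69.7 to 70.5) and 13840 were blastula-only, which is 29.9% of the list. Of the late gastrula peaks, 33488 were matched (51.7%, 51.4 to 52.1) and 31225 were late-only, which is 48.3% of that list. Late-only peaks thus outnumbered blastula-only peaks 2.26 to 1. These intervals cover counting error of peaks only, and peaks are not replicates of a stage.

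The excess of late-only peaks was not seen once the lists had equal length. When the late list was cut to 46275 peaks by score, the transform of the irreproducible discovery rate (IDR) that the authors deposited, 60.2% of early blastula peaks and 61.4% of late gastrula peaks were matched. The unmatched peaks then numbered 18412 at early blastula and 17850 at late gastrula. Cut to the same length by enrichment, the deposited fold over background of a peak, the shares were 56.4% and 57.2%, with 20188 blastula-only and 19824 late-only peaks. At equal length the ratio of late-only to blastula-only peaks was 0.969 by score and 0.982 by enrichment, values that equal lengths hold near 1 by construction wherever most partners are one-to-one. The cut by score took away 42.8% of the late-only peaks and 15.1% of the matched late peaks.

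In the whole lists, late-only peaks exceeded blastula-only peaks on all 27 scaffolds with a named length of at least 10 Mb. Each of these scaffolds also held more late gastrula than early blastula peaks. That holds the ratio above 1 by construction wherever partners are one-to-one, and scaffolds were not compared at equal length. The ratio was lowest on scaffold 27, at 1.61, and highest on scaffold 11, at 2.67, with a median of 2.32. The matched share of early blastula peaks was nearly even across these scaffolds, from 64.4% on scaffold 26 (57.3 to 70.9) to 74.0% on scaffold 25 (69.2 to 78.3). The interval left out the share of the whole list on 3 of the 27 scaffolds. The matched share of late gastrula peaks varied more, from 43.6% on scaffold 26 (37.9 to 49.5) to 56.5% on scaffold 14 (54.9 to 58.1), and the interval left out the whole-list share on 7 scaffolds. Scaffold 14 was also the scaffold richest in early blastula peaks, at 66.8 per Mb, and scaffold 26 the poorest, at 13.4 per Mb. Between these extremes the late matched share did not keep the order of peak density. Scaffold 27, at 19.3 per Mb, had a late matched share of 54.3%. Scaffolds 21 and 15, at 57.0 and 57.6 per Mb, had 51.4% and 55.5%. The part of peak density in the matched share was not tested. The 101 smaller scaffolds together held 784 early blastula peaks, of which 66.7% were matched, and 1094 late gastrula peaks, of which 48.7% were matched. On 17 scaffolds only the late list had peaks, 27 in all, and on 4 only the early list, with 7 peaks.

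Matched peaks were the more enriched in both lists. Percentiles here are those of enrichment within a list, so they compare peaks of 1 stage with each other. Matched early blastula peaks had a median percentile of 54.9 (quartiles 28.1 and 78.8), and blastula-only peaks one of 40.5 (19.9 and 63.9). Matched late gastrula peaks had a median of 61.2 (33.4 and 83.0), and late-only peaks one of 39.6 (19.3 and 63.1). The gap between these medians kept its direction but not its size. At early blastula it was 14.3 points in the whole lists, 4.12 among peaks with an IDR of at most 0.01 and 31.9 with the late list cut by enrichment. At late gastrula it was 21.6 points in the whole lists and 13.1 at an IDR of at most 0.01. The classes overlapped broadly, and each held peaks of every decile of enrichment.

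The matched share of early blastula peaks stayed between 59.6% and 67.9% over the lower 6 deciles of enrichment, then climbed to 85.3% (84.2 to 86.3) in the upper decile. At late gastrula it climbed throughout, from 35.3% (34.2 to 36.5) in the lowest decile to 79.9% (78.9 to 80.9) in the upper. The early blastula share changed little over the weaker part of its list, whereas the late gastrula share was lower there. With the late list cut by score, the lowest and upper deciles stood at 46.2% and 80.4% at early blastula and at 48.5% and 82.5% at late gastrula, so the profiles of both end points lay close together. With the cut by enrichment the lowest early blastula decile was matched in 13.9%, since that cut removes by construction the weakly enriched late peaks that such sites would meet.

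**Figure D1:**
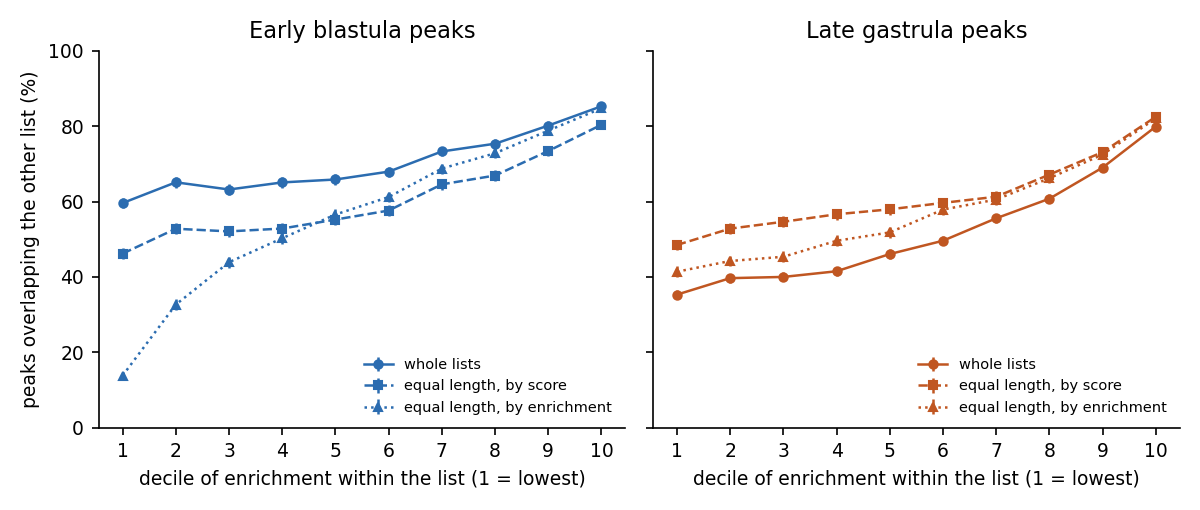
Share of peaks that overlap a peak of the other end point (y axis, percent), by decile of enrichment within the list (x axis), for early blastula peaks (left) and late gastrula peaks (right). Lines are the whole lists and the lists at equal length, and bars are Wilson 95% intervals; in the whole lists the upper decile is matched in 85.3% at early blastula and 79.9% at late gastrula.

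Some of the most enriched peaks of each list had no partner. The upper decile of enrichment held 681 blastula-only peaks (4.92% of that class) and 1301 late-only peaks (4.17%). At equal length by score these were 908 and 810, and by enrichment 706 and 830, so which end point had more depended on the cut. The maximum score of 1000 was reached by 14.4% of blastula-only peaks against 47.2% of matched early blastula peaks, and by 20.2% of late-only peaks against 57.6% of matched late gastrula peaks.

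Matched peaks were wider than unmatched ones. At early blastula the median width of matched peaks was 311 bp, and that of blastula-only peaks 263 bp. At late gastrula matched peaks had a median of 287 bp and late-only peaks one of 260 bp. Among early blastula peaks the matched share went from 55.9% at up to 200 bp to 86.0% between 500 and 1000 bp and 94.4% (91.7 to 96.3) above 1000 bp. At late gastrula the corresponding shares were 38.9%, 70.5% and 91.1% (85.1 to 94.8). A wider peak meets the overlap rule more easily, and width also went with enrichment. With each list split into 3 equal groups by enrichment, matched peaks had the larger median width in every group of both lists. From the least to the most enriched group the medians at early blastula were 268, 304 and 348 bp for matched and 243, 259 and 296 bp for blastula-only peaks. At late gastrula they were 249, 276 and 313 bp for matched and 236, 258 and 306 bp for late-only peaks. At equal length by score the medians of matched and unmatched peaks were 320 and 263 bp at early blastula and 300 and 291 bp at late gastrula. By enrichment they were 316 and 269 bp at early blastula and 296 and 273 bp at late gastrula, so the size of the late gastrula gap depended on the cut.

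Unmatched peaks ranged from close neighbours of the other list to sites with nothing near them. The median distance to the nearest peak of the other list was 3157 bp for blastula-only peaks (quartiles 632 and 9305) and 4823.5 bp for late-only peaks (1412 and 12505). Within 500 bp lay 21.9% of blastula-only and 12.8% of late-only peaks, and beyond 20000 bp 9.86% and 15.9%. The difference depended on the cut. At equal length by score the medians were 4558 and 4606 bp, and by enrichment they were 3624.5 bp for blastula-only and 7353 bp for late-only peaks, farther apart than in the whole lists. Of the 3027 blastula-only peaks with a late peak within 500 bp, 2263 (74.8%) had as their nearest late peak one that was itself matched, and 764 a late-only peak. Of the 3994 such late-only peaks, 3234 (81.0%) were nearest to a matched early blastula peak. For comparison, 51.7% of all late gastrula peaks and 70.1% of all early blastula peaks were matched. The share for late-only peaks thus lay nearer to that of the whole list than the share for blastula-only peaks. Crowded peaks were matched more often than whole lists. Of those with a neighbour of their own list within 500 bp, 12768 were matched and 6996 unmatched at late gastrula. At early blastula the counts were 10591 and 3365.

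Peaks at the margin of the overlap rule were few. The best overlap was 20 bp or less for 22 matched early blastula peaks and 26 matched late gastrula peaks, with median percentiles of 16.8 and 22.9. Another 66 blastula-only and 70 late-only peaks missed the other list by 20 bp or less, with median percentiles of 19.0 and 23.4.

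Remote unmatched peaks were more enriched than those close to the other list. At up to 100 bp the median percentile was 17.4 for blastula-only and 23.4 for late-only peaks, and beyond 20000 bp it was 61.6 and 59.4. Their score did not follow: the median was 630 at up to 100 bp and 603 beyond 20000 bp for blastula-only peaks, and 656 and 637 for late-only peaks.

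**Figure D2:**
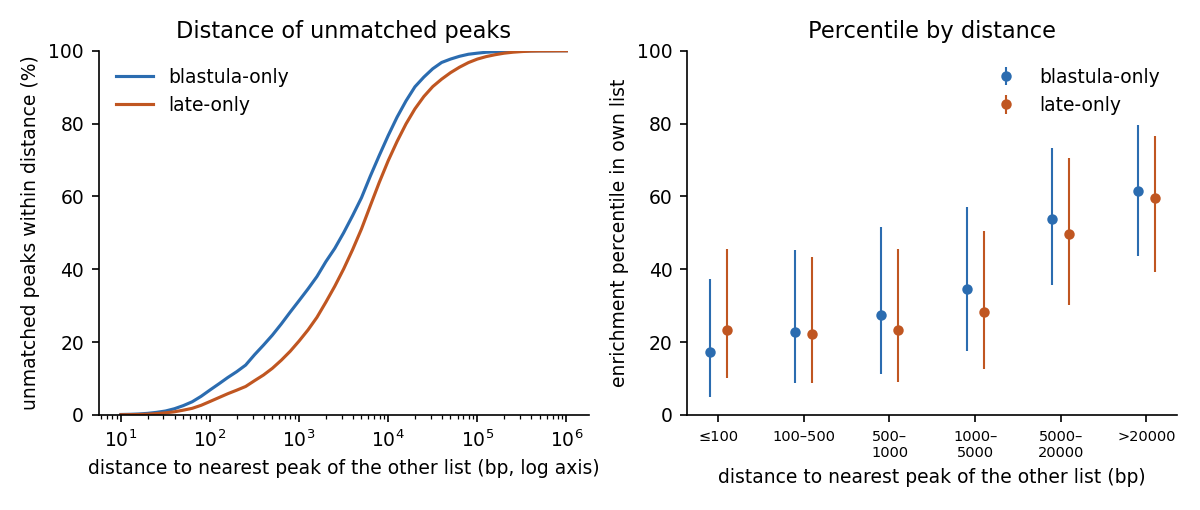
Left, cumulative share of unmatched peaks (y axis, percent) within a distance of the nearest peak of the other list (x axis, bp, log scale), for blastula-only and late-only peaks. Right, median enrichment percentile in the own list (points, with bars to the quartiles) by distance class; it runs from 17.4 to 61.6 for blastula-only peaks and from 23.4 to 59.4 for late-only peaks.

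Crowding by peaks of the same list moved with enrichment in matched and unmatched peaks alike. Early blastula peaks with a neighbour of their own list within 500 bp had a median percentile of 43.7 when matched and 21.4 when blastula-only, and those with none within 20000 bp had 77.2 and 61.0. At late gastrula the values were 51.0 and 24.5 in the crowded class and 85.2 and 61.8 in the isolated one. The median −log10 p of a peak, also deposited by the authors, moved little between the same classes. It was 31.2 and 28.4 for matched and 19.1 and 20.6 for blastula-only peaks, and 36.7 and 36.7 for matched and 21.9 and 22.1 for late-only peaks. In each of the 5 classes of crowding and in both lists, matched peaks had the higher median of both measures. The part of crowding in the enrichment of remote peaks was not tested.

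**Figure D3:**
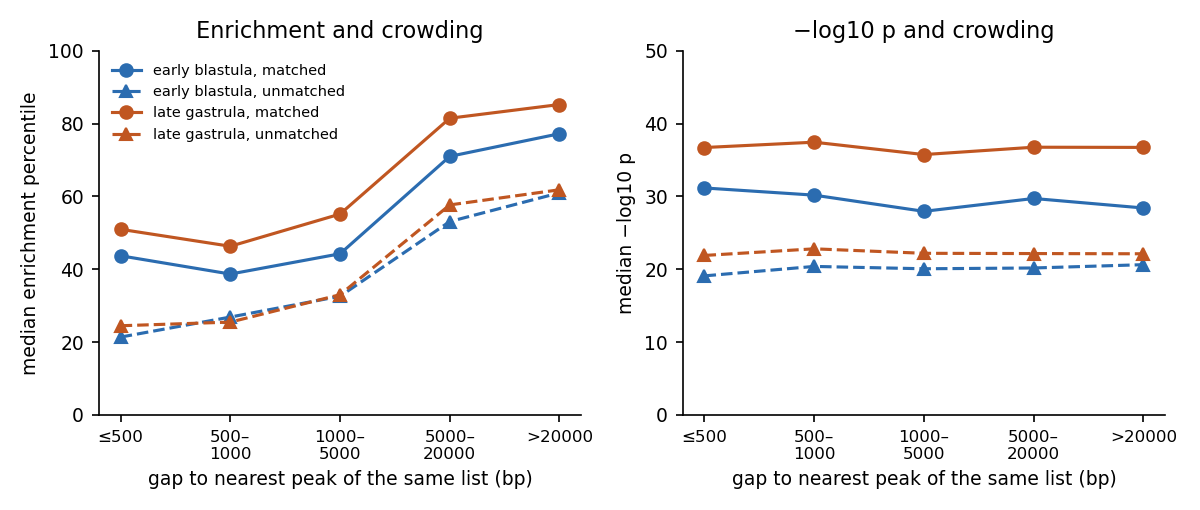
Median enrichment percentile (left) and median −log10 p (right) of matched (circles) and unmatched (triangles) peaks of each end point, by gap to the nearest peak of the same list (x axis, bp). Enrichment is higher where peaks stand alone, from 43.7 to 77.2 for matched early blastula peaks, while −log10 p stays between 28.0 and 31.2 for them.

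The blastula-only peaks of highest enrichment lay on different scaffolds and all had the maximum score. The first was on scaffold 24 at 19300290 to 19300650, with an enrichment of 21.5, a −log10 p of 82.7 and the nearest late gastrula peak 12152 bp away. The second was on scaffold 3 at 35138708 to 35139008 (enrichment 21.3, −log10 p 85.6), 11177 bp from a late peak. The third was on scaffold 17 at 31194002 to 31194482 (enrichment 21.1, −log10 p 93.3), 16018 bp from a late peak. All 3 had a peak in the early gastrula list and none in the mid gastrula list, so by the lists they were gone between these stages. The same held for the fifth, on scaffold 2 at 38992167 to 38992469 (enrichment 21.0, −log10 p 85.0), only 2775 bp from a late peak. The fourth, on scaffold 1 at 61229365 to 61229794 (enrichment 21.0, −log10 p 79.7), still had a mid gastrula peak and was 60262 bp from the nearest late one.

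The late-only peaks of highest enrichment were all present in the early and mid gastrula lists. They were led by a site on scaffold 24 at 5449135 to 5449561, with an enrichment of 26.9 and a −log10 p of 121, 5596 bp from an early blastula peak. Next was scaffold 12, 39861364 to 39861692 (enrichment 26.3, −log10 p 97.8), 14235 bp from one. The third lay on the small scaffold 66 at 470474 to 470821 (enrichment 25.7, −log10 p 103), where the early blastula list had no peak at all. Scaffold 53, 352417 to 352881 (enrichment 25, −log10 p 112), stood 114829 bp from an early blastula peak but 1024 bp from another late peak. Scaffold 19, 28603354 to 28603670 (enrichment 24.9, −log10 p 98.0), was 7154 bp from one.

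The most remote unmatched peaks on large scaffolds had scores below the maximum. On scaffold 3 a blastula-only peak at 26930985 to 26931188 (percentile 76.1, score 614) lay 845788 bp from any late peak, and on scaffold 24 one at 17903493 to 17903672 (percentile 73.2, score 595) lay 753264 bp away. A pair of late-only peaks on scaffold 3, at 28366997 to 28367158 (percentile 56.1, score 443) and 28250315 to 28250511 (percentile 17.4, score 423), lay 1435808 and 1319126 bp from any early blastula peak. All but the last stood above the median percentile of their class, 40.5 for blastula-only and 39.6 for late-only peaks. All 4 were narrow, from 162 to 204 bp.

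The intermediate stages, which the matching did not use, were set against the unmatched peaks. Their lists held 48416 peaks at early gastrula and 43317 at mid gastrula. The largest class of unmatched peaks at both end points overlapped neither list. Of the blastula-only peaks, 8458 (61.1%, 60.3 to 61.9) overlapped neither an early nor a mid gastrula peak, 3770 (27.2%) overlapped an early gastrula peak alone and 1191 (8.61%) both. Another 421 (3.04%) overlapped a mid gastrula peak alone, against 4.90% of matched early blastula peaks. An early gastrula peak alone was overlapped by 11.8% of those matched peaks. Of the late-only peaks, 15453 (49.5%, 48.9 to 50.04) overlapped neither, 6096 (19.5%) a mid gastrula peak alone, 6514 (20.9%) both and 3162 (10.1%) an early gastrula peak alone. Among matched late gastrula peaks the shares in the same order were 7.61%, 4.99%, 75.2% and 12.2%. The share with an early gastrula peak alone was thus close in both classes. Unmatched peaks found in both intermediate lists were more enriched, with median percentiles of 56.7 at early blastula and 54.5 at late gastrula, than those found in neither, with 35.5 and 32.4. Matched peaks were mostly present throughout: 24604 of the matched early blastula peaks (75.9%) overlapped both intermediate lists, and 2425 (7.48%) overlapped neither. These 2425 had a median percentile of 34.5 and a median width of 242 bp, against 59.8 and 334 bp for those present throughout.

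The pairing of matched peaks was mostly simple. There were 33979 overlapping pairs, of which 30086 were one-to-one, with each peak meeting no other of the opposite list. An early blastula peak covered 2 or more late gastrula peaks in 1456 cases (4.49% of matched early peaks), and a late gastrula peak covered 2 or more early blastula peaks in 484 (1.45% of matched late peaks). The early blastula peaks of this kind had a median width of 696 bp, while the late peaks under them had one of 261 bp. Late gastrula peaks over several early ones were likewise wide, at a median of 609 bp, against 300 bp for the early peaks under them. The most late peaks under 1 early peak was 4, reached by 7 peaks, and the most early peaks under 1 late peak was 3, also reached by 7. The excess of early peaks over several late ones was smaller at equal length, 978 against 458 by score and 744 against 401 by enrichment, in the same direction.

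Within one-to-one pairs the position of the summit, the point of highest signal in a peak, was closely kept. The median absolute shift was 10 bp (quartiles 3 and 35). The summits were identical in 2441 pairs (8.11%), within 10 bp in 51.3% (50.7 to 51.8) and within 50 bp in 83.5% (83.0 to 83.9). Shifts had no preferred direction along the scaffold, with 24.6% of late summits more than 10 bp to the left and 24.1% more than 10 bp to the right. In 98.6% of pairs each summit lay inside the other peak, and the median Jaccard index of a pair, shared over combined length, was 0.844.

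Large summit shifts went with wider and less enriched peaks than small shifts did. Summits of overlapping peaks can lie no farther apart than the combined width of the peaks. The difference in width thus follows in part from the matching rule. In the 922 pairs shifted by more than 200 bp (3.06%), the median widths were 559 bp at early blastula and 531 bp at late gastrula and the median percentiles 43.8 and 48.5. In the 15428 pairs shifted by 10 bp or less, the widths were 284 and 271 bp and the percentiles 57.5 and 65.3. The largest shift was on scaffold 13, where an early blastula peak of 1544 bp (35326527 to 35328070, score 753) met a late gastrula peak of 259 bp (35326490 to 35326748, score 1000) at its left edge. The summit shift was −1269 bp, to the left of the early one.

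Peaks were slightly narrower at late gastrula, with a longer tail on that side. The median width change from early blastula to late gastrula was −6 bp (quartiles −52 and 27). The late peak was narrower by 100 bp or more in 4595 pairs (15.3%) and wider by as much in 2486 (8.26%). Between 150 and 250 bp were lost in 1810 pairs and gained in 938. The balance kept its direction at equal length, with 4129 pairs narrower and 2322 wider by 100 bp or more by score, and 4075 and 2025 by enrichment. Starts and ends contributed alike, with quartiles of −15 and 23 bp for the start and −24 and 15 bp for the end. In the widest 20% of early blastula peaks the median change was −88 bp, whereas in the widest 20% of late gastrula peaks it was 18 bp. In the narrowest 20% by early width it was 12 bp, and by late width −18 bp. The signs follow in part from picking a class by its width at 1 end point, while the sizes were unequal. The widest pair was on scaffold 61, where 2494 bp at early blastula (521654 to 524147) faced 583 bp at late gastrula (523533 to 524115), with both summits 41 bp apart and both scores at 1000.

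**Figure D4:**
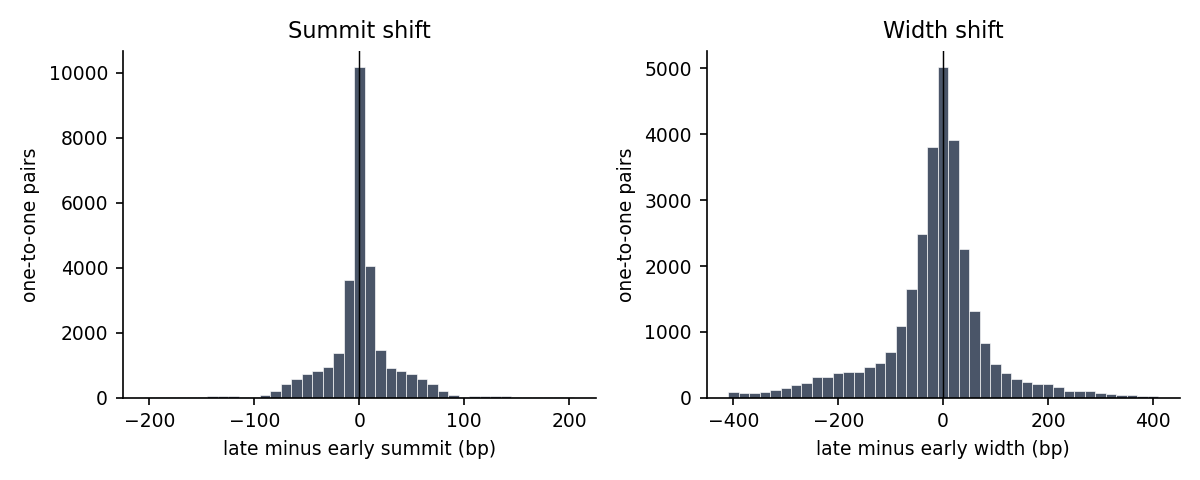
Shift of the summit (left, bins of 10 bp) and of the width (right, bins of 20 bp) from early blastula to late gastrula over 30086 one-to-one pairs (y axis, number of pairs). Summit shifts are centred on 0 and symmetric, while width shifts have a heavier tail towards narrower late peaks, with 4595 pairs narrower and 2486 wider by 100 bp or more; 886 and 614 pairs lie beyond the axes.

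Most one-to-one pairs had percentiles less than 25 points apart between the end points. This held for 22781 of them, and 12935 (43.0%) lay within 10 points. Windows this wide would also take in many pairs of unrelated ranks. The percentile was higher at late gastrula by 25 points or more in 4907 pairs, 16.3% of all, and lower by as much in 2398, 7.97%. By 50 points or more it was higher in 658 and lower in 355. The median shift was 3.82 points (quartiles −6.32 and 17.6). The balance turned with the list: at equal length by enrichment the median shift was −2.14, with 2509 pairs higher and 4386 lower by 25 points or more, and by score it was 0.0972, with 2788 and 2867. Ranked among the pairs alone, 3367 were higher and 3466 lower by 25 points or more. That ranking uses the same pairs at both end points, so by construction it leaves no mean shift and favours an even balance. The direction of the balance thus depended on which peaks were ranked.

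**Figure D5:**
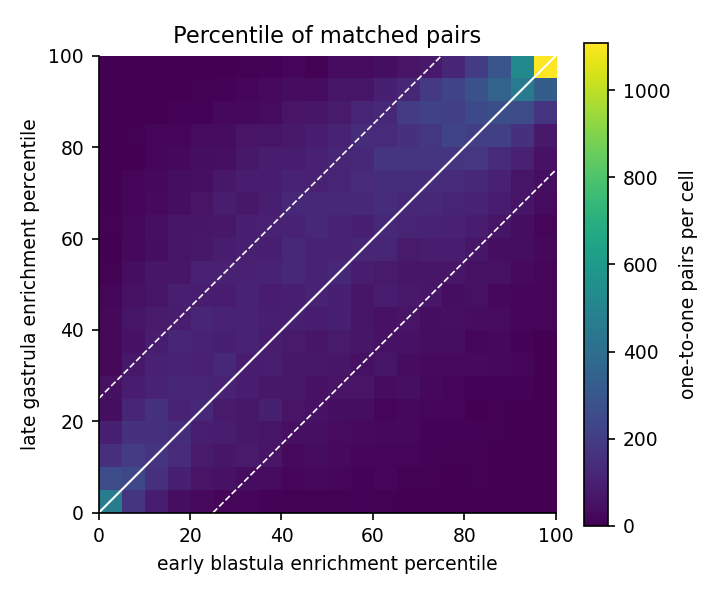
Enrichment percentile at early blastula (x axis) and at late gastrula (y axis) of 30086 one-to-one pairs, as the number of pairs per cell of 5 by 5 points (colour). The solid line marks equal percentiles and the dashed lines a difference of 25 points; pairs gather at the ends of the diagonal, with 1109 in the uppermost cell and 467 in the lowest.

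Among deciles of early blastula enrichment, summits lay closest together in the upper one. Pairs in the upper decile of early blastula enrichment had a median percentile of 95.1 there and 93.9 at late gastrula, their median summit shift was 8 bp, and 76.8% had the maximum score in both lists. In the lowest decile the median percentiles were 5.30 and 11.5, the summit shift 12 bp, and 10.1% had the maximum score in both. Narrow peaks were as close without high enrichment. In the narrowest 20% by early blastula width the median summit shift was 7 bp and 94.9% of summits lay within 50 bp. The median early blastula percentile there was 35.5. Overlapping narrow peaks leave less room for a summit shift, so this closeness follows in part from their width. The leading pair lay on scaffold 24, at 19287818 to 19288194 at early blastula (enrichment 27.7) and 19287822 to 19288137 at late gastrula (enrichment 29.9), with summits 1 bp apart. Its late gastrula peak was the one nearest to the most enriched blastula-only peak, 12152 bp away. The next pairs were on scaffold 2 at 2129350 to 2129782 and 2129407 to 2129792 (enrichment 25.5 and 30.7) and on scaffold 57 at 745247 to 745615 and 745296 to 745610 (25.3 and 32.3).

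Pairs of changed rank also differed in width. Pairs higher by 25 points or more at late gastrula were wider there by a median of 18 bp, from 269 to 292 bp in the medians. Pairs lower by 25 points or more were narrower there by 43 bp, from 336 to 266 bp. Enrichment and width come from the same reads, so these are not independent measures.

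Pairs of changed rank were followed through the intermediate lists. Among pairs with a single peak in each of the 4 lists, 3526 were higher by 25 points or more at late gastrula. In order of stage, from early blastula to late gastrula, their median percentiles were 33.5, 56.5, 61.8 and 74.7. For the 1441 pairs that were lower by as much they were 73.6, 55.4, 38.4 and 33.2. The 16477 pairs within 25 points had medians of 67.0, 67.5, 64.0 and 70.2. The classes were picked by their end points, which sets the first and last values and also favours middle values that lie between them, so these medians are a description only. Both middle percentiles lay between the end points in 63.6% of the pairs that were higher and 53.0% of those that were lower. Among the pairs within 25 points, whose end points lie closer together, the share was 21.1%.

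Of the 5 pairs with the largest gains in percentile, 3 had a single peak in both intermediate lists, and in these the percentile was higher at each later stage. On scaffold 21, 5276443 to 5276725 at early blastula (enrichment 4.11) and 5276453 to 5276760 at late gastrula (enrichment 12.5), the percentiles were 5.96, 21.3, 47.7 and 87.8 from early blastula to late gastrula, with the maximum score at both end points. On scaffold 5, 30511136 to 30511308 and 30511091 to 30511325, they were 5.96, 45.6, 59.5 and 84.9. On scaffold 4, 8521140 to 8521343 and 8521034 to 8521702, they were 15.0, 72.4, 86.0 and 93.4, and the peak was 204 bp wide at early blastula and 669 bp at late gastrula. The other gains, for which no single early gastrula peak was found, were on scaffold 9, 2817628 to 2817916 and 2817563 to 2817964 (11.9 to 90.7), and on scaffold 14, 22799371 to 22799746 and 22799273 to 22800053 (18.9 to 95.3). All but the first had early blastula scores of 562 or less, below the lower quartile of that list, 572.

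The pairs with the largest losses had the maximum score at early blastula. On scaffold 6, 25106199 to 25106568 at early blastula (enrichment 11.8) and 25106256 to 25106508 at late gastrula (enrichment 3.50), the percentiles were 92.9, 80.7, 34.9 and 2.11 from early blastula to late gastrula. On scaffold 15, 24765742 to 24766203 and 24765796 to 24766205, they were 97.5, 54.4, 12.2 and 10.9. On scaffold 7, 27570503 to 27571056 and 27570526 to 27570719, they were 91.3, 41.6, 9.49 and 5.85, and the width went from 554 to 194 bp. On scaffold 22, 30709429 to 30709800 and 30709477 to 30709702, they were 87.8, 42.9, 7.50 and 3.81, with summits 1 bp apart. On scaffold 2, 11758283 to 11758584 and 11758324 to 11758880, they were 92.1, 77.3, 18.2 and 3.77, and this late peak was the wider of the pair, at 557 bp against 302 bp. In all 5 the percentile was lower at each later stage.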

How the data were processed

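The deposited files are 1 IDR peak list per stage (12 columns, no header), made by the authors from 2 libraries. Bowtie2, bedtools and MACS2 were used, per the submitters' processing notes. The sources used here do not give settings, genome build, read shifting, treatment of duplicates or any pooling before peak calling. In the column order of the IDR tool, which no header states, the deposited score is a transform of the IDR capped at 1000. The deposited enrichment is a ratio (fold over background), and the deposited −log10 p belongs to the peak. Other deposited columns hold the summit offset, −log10 q (not used) and −log10 IDR. The highest IDR was 0.100, so the lists hold no peaks above it. Depth is unknown.

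Percentiles are mean ranks of enrichment within a list, and summits are the start plus the offset. Positions are 1-based on the named scaffolds. No list held overlapping peaks, and 33 peaks on 9 scaffolds lay past the length in the scaffold name. Sites were named by rule: the 5 unmatched peaks of highest enrichment and the 2 farthest per list, 3 pairs of highest mean percentile, the 5 largest changes each way, the widest pair and the largest summit shift. The comparison and its classes were chosen with earlier results of these data known. Planned gene lists, locations and sequences were not run, as no build is named. Matching, pairing and distances were tested on simulated peaks, and matched counts were checked with bedtools 2.31.1. Computations used SciPy 1.17.1, pandas 2.3.3 and NumPy 2.4.6 under Python 3.11.15, with plots from Matplotlib 3.10.9.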

Additional observations from a re-analysis of the deposited data

How the results depend on the processing

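No paired analysis was possible because the libraries of a stage were combined into 1 list, which also left no replicate to leave out. Of 114 values under alternatives, 4 changed direction. The ratio of late-only to blastula-only peaks was 0.982 and 0.969 with the late list cut by enrichment and by score. Equal lengths hold this ratio near 1 by construction, so its change of direction is not a result about the stages. The median percentile shift of pairs was −2.14 with the cut by enrichment and −1.08 with percentiles of score. It was 0.0972 with the cut by score, 3.59 at an IDR of at most 0.01, 4.24 with percentiles of −log10 p and 3.37 over all pairs. The shares matched at early blastula and late gastrula were 56.4% and 57.2% with the cut by enrichment and 60.2% and 61.4% by score. They were 71.9% and 50.6% at an IDR of at most 0.01, and 67.1% and 48.0% with windows of 200 bp around summits. The gap in median percentile between matched and unmatched early blastula peaks, 14.3 points in the whole lists, was 31.9 with the cut by enrichment, 17.0 by score, 4.12 at an IDR of at most 0.01, 15.4 in windows, 29.6 by −log10 p and 31.3 by score percentile. The late gastrula gap, 21.6 points, was 14.9 with the cut by score, 13.1 at an IDR of at most 0.01, 23.8 in windows, 31.9 by −log10 p and 46.2 by score percentile. The median absolute summit shift was 9 bp at an IDR of at most 0.01 and in windows, and 11 bp over all pairs. At an IDR of at most 0.01 there were 6399 blastula-only and 16395 late-only peaks. An overlap of at least 50% of the shorter peak, and scaffolds of at least 10 Mb alone, moved none of these values beyond its interval. Counts and ratios were called moved beyond 1.5 times, and shares and medians beyond their 95% binomial interval. Alternatives for pairs changed by 25 points and for peaks over several others were chosen after seeing the data. Apart from the ratio that equal lengths hold near 1, the cause of these changes was not tested.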

Other observations

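Unmatched peaks that follow each other along a scaffold, with no peak of the other end point between them, form runs, a measure chosen after the values were seen. Late-only peaks fell into 937 runs of 5 or more, which held 5888 peaks (18.9% of the class), and blastula-only peaks into 40, which held 224 (1.62%). The longer late list favours such runs. At equal length by score the runs numbered 265 with 1545 peaks (8.66%) at late gastrula and 193 with 1100 (5.97%) at early blastula.

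The longest runs of late-only peaks held 20 peaks each. On scaffold 33 a run spanned 622 kb, from 1688322 to 2310151, with percentiles from 18.5 to 98.1 and 6 peaks at the maximum score. On scaffold 12 a run was packed into 96.1 kb, from 12132501 to 12228581, with a median percentile of 25.1 and 6 peaks at the maximum score. On scaffold 16 a run spanned 216 kb, from 7446311 to 7662377, with a median percentile of 47.4. The longest run of blastula-only peaks held 8 peaks on scaffold 7, from 12856117 to 12876199, a span of 20.1 kb. Its peaks were among the least enriched of the list, with a median percentile of 1.90 and a highest of 9.56, and 1 of them had the maximum score.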
